A study of Caenorhabditis briggsae with 12 samples.

Results

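The comparison described here set hermaphrodites on day 9 of adulthood against hermaphrodites on day 6, in 6 of the 12 libraries of the series. Each age had 3 libraries, taken by day and replicate number from the library titles. All animals were whole hermaphrodites of AF16, the wild-type laboratory strain of Caenorhabditis briggsae, with no transgene, drug or other treatment named in the labels, and were kept at 20 °C on E. coli OP50. The groups differed in age alone as far as the labels say: cohorts synchronised by bleaching were washed and picked free of their larvae every second day until they were sampled. RNA-seq counts were given for 23169 gene identifiers, of which 13956 had enough counts in these 6 libraries to be tested.

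Caenorhabditis briggsae, like its relative Caenorhabditis elegans, makes its own sperm early in life and then oocytes, so that self-fertility ends when the stored sperm is used up. In young adults the gonad and the embryos in the uterus make up much of the body, and the intestine makes large amounts of yolk protein RNA for the oocytes. RNA from a whole animal of a later age is therefore a mixture of germline, embryo and body tissue in changing proportions. In such bulk samples, fewer cells of a type and less RNA per cell cannot be told apart. The identifiers are paired with gene names neither in the deposited table nor by the reference table of 22727 genes, which matched 0 of them, so the labelled tissue could not be checked against markers of germline, embryos, larvae or males. Genes are given by identifier, with no name or role, and are grouped by how they behaved.

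The day 9 libraries did not form a single group. Totals were 22703555 to 33079955 counts at day 6, and 14276540, 31861634 and 25821051 counts in replicates 1, 2 and 3 of day 9. Levels are given as CPM after TMM scaling (counts scaled to a common total, with a correction for library composition), and differences as log2 CPM, with a prior count of 2. CPM is not corrected for gene length, so the levels of different genes rank them by counts and not by number of transcripts. On this scale day 9 replicates 2 and 3 correlated across genes at r = 0.994, whereas replicate 1 correlated with them at 0.821 and 0.798 and with the day 6 libraries at 0.948 to 0.963. The first principal component held 83.0% of the variance, with replicates 2 and 3 at 123.9 and 135.5, replicate 1 at -88.1, day 6 replicates 1 and 2 at -70.1 and -69.4, and day 6 replicate 3 at -31.8. Day 6 replicate 3 thus lay on the side of day 9 replicates 2 and 3 when compared with the other day 6 libraries. A level of at least 1 CPM by library total was reached by 11336, 11414 and 11489 genes in the day 6 libraries, by 11507 in day 9 replicate 1, and by 13866 and 13901 in replicates 2 and 3. Within a day, the log2 CPM of the median gene had a standard deviation of 0.16 at day 6 and 0.47 at day 9. Genes are not independent, so no p-value goes with these correlations.

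Changes shared by all 3 day 9 libraries were therefore set apart from those of replicates 2 and 3 only. A gene was placed in a class when the libraries concerned lay at least 1 log2 unit, or 2-fold, beyond the nearest day 6 library. All 3 day 9 libraries lay above day 6 by that margin for 191 genes, 1.37% of those tested, and below it for 102 genes, 0.731%. Replicates 2 and 3 lay above by that margin while replicate 1 did not lie above day 6 at all for 1984 genes, 14.2%, and the mirror image below day 6 held for 120 genes, 0.86%. An intermediate position, with replicate 1 beyond day 6 in the same direction but by less than 2-fold, was taken by 742 genes above and 162 below, or 5.32% and 1.16%. Of the 2917 genes that lay at least 2-fold above day 6 in replicates 2 and 3, replicate 1 shared the margin in 6.55%, and of the 384 that lay below, in 26.6%. Among all 13956 tested genes, replicate 1 lay at least 2-fold above day 6 in 497 and at least 2-fold below it in 810. These classes follow from the values of the 6 libraries and carry no test; 3 libraries against 3 cannot give an exact permutation p below 0.1.

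**Figure D1:**
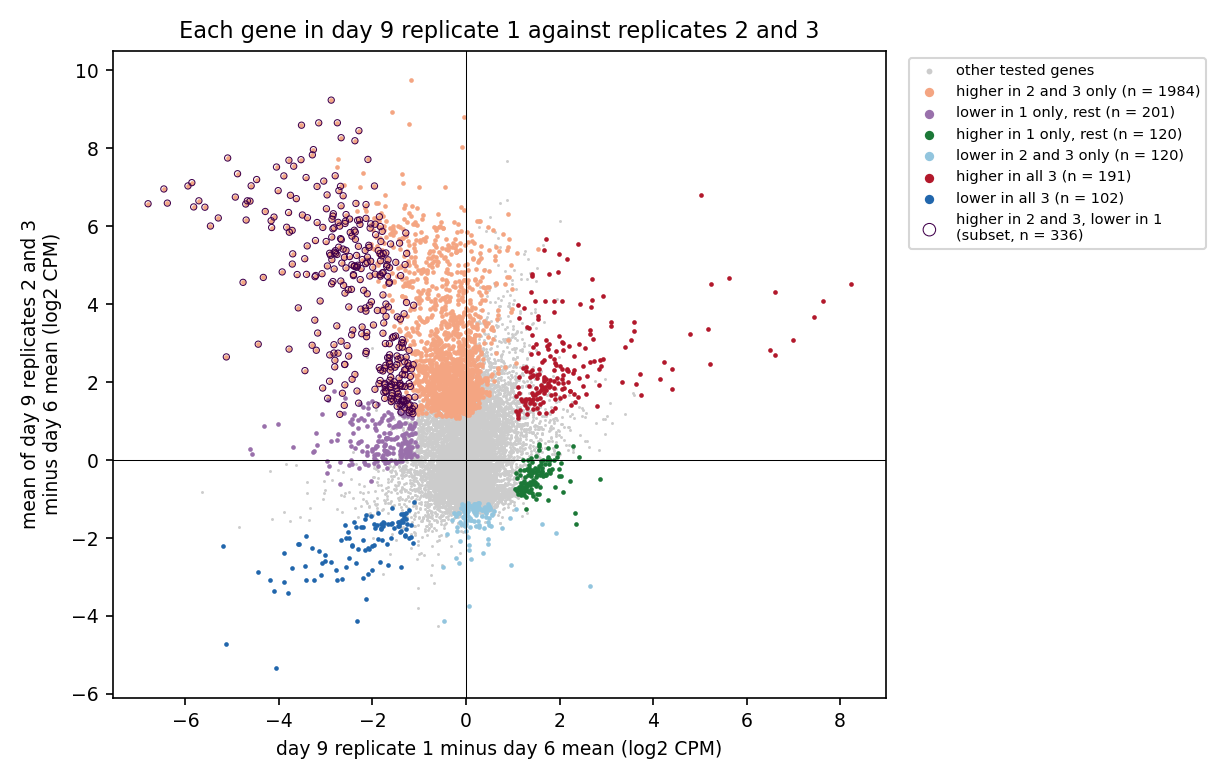
Each point is a tested gene, placed by its log2 CPM in day 9 replicate 1 minus the day 6 mean (horizontal axis) and by the mean of day 9 replicates 2 and 3 minus the day 6 mean (vertical axis), with colours for the classes and grey for all other genes. The 1984 genes above day 6 in replicates 2 and 3 only lie in the upper part, 1598 of them at or left of 0 and 386 to its right, the 191 and 102 genes shared by all 3 libraries lie in the upper right and lower left, and open circles mark the 336 genes that were also at least 2-fold below day 6 in replicate 1.

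Between days 6 and 9, a small set of genes changed in step in all 3 day 9 libraries. In a fit of the 6 libraries with edgeR's quasi-likelihood test and an adjusted p under 0.05, 25 genes rose and 41 fell, or 0.179% and 0.294% of those tested and 0.473% together. At an unadjusted p under 0.05, 3080 genes lay higher and 1480 lower, 22.1% and 10.6% of those tested and 32.7% together. The rises had a median log2 fold change of 2.30, about 4.91-fold, and ranged from 1.15 to 6.41. The falls had a median of -1.99, about 3.96-fold, and ranged from -6.48 to -1.17, against a median of 0.10 over all tested genes. The libraries of the days did not overlap for any of these 66 genes, where 15.9% of all tested genes lay wholly above and 15.9% wholly below. The class shared by all 3 day 9 libraries held 24 of the 25 rises and 39 of the 41 falls, and the class of replicates 2 and 3 only held 0 of either.

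Within the called genes the day 9 libraries were close to each other. For the 25 rises the median difference from day 6 was 2.09, 2.28 and 2.40 log2 units in replicates 1, 2 and 3, and for the 41 falls it was -1.97, -2.01 and -1.89. Their median standard deviation among the day 9 libraries was 0.22 for rises and 0.16 for falls, against 0.47 over all tested genes. The test favours such genes, since a gene on which replicate 1 departs from the other two has a large spread at day 9. The falls stood at higher levels than the rises: the median over the 6 libraries was 57.1 CPM for the genes that fell and 10.3 CPM for those that rose. Of the 25 rises 12 had a mean under 10 CPM, or 48.0%, as did 5 of the 41 falls, or 12.2%, and 6133 of all tested genes, or 43.9%. The median level over all tested genes was 14.7 CPM.

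The 4 genes with the highest CPM at day 6 all fell. These genes, WBGene00024796, WBGene00035047, WBGene00034777 and WBGene00034800, were singled out after their values had been seen. They together made up 78203, 73275 and 101834 CPM in the day 6 libraries and 25066, 26892 and 26694 CPM in replicates 1, 2 and 3 of day 9. WBGene00024796, the first in rank at day 6, stood at 28178, 26540 and 37492 CPM at day 6 and at 11869, 11801 and 11618 CPM in those of day 9. Its log2 fold change came to -1.39 (SE 0.16, n = 3 libraries each; adjusted p = 0.0344 in edgeR). WBGene00035047 stood at 25609, 24093 and 33536 CPM at day 6 and at 7750, 8209 and 8043 CPM at day 9, a log2 fold change of -1.79 (SE 0.15; adjusted p = 0.0246 in edgeR). The day 9 libraries differed by far less than those of day 6 for both genes, among which replicate 3 was the highest.

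WBGene00034777 stood at 16852, 15605 and 22666 CPM at day 6 and at 3049, 4515 and 4541 CPM at day 9, a log2 fold change of -2.19 (SE 0.23; adjusted p = 0.0308 in edgeR). It was the steepest of the 4 falls, and replicate 1 of day 9 was the lowest library: the log2 fold change was -2.58 with it as the lone day 9 library and -2.02 without it. WBGene00034800 stood at 7565, 7036 and 8139 CPM at day 6 and at 2398, 2367 and 2493 CPM at day 9, a log2 fold change of -1.65 (SE 0.11; adjusted p = 0.0159 in edgeR). These 4 were the called genes with a day 6 mean of at least 1000 CPM, out of 116 such genes tested, or 3.45%. Of all tested genes 0.294% were called lower. The calls of WBGene00024796 and WBGene00034777 were lost with upper-quartile scaling, at log2 fold changes of -1.23 and -2.01.

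Other genes near the top of the day 6 ranking differed less evenly. The 10 genes with the most counts at day 6 held 9.97%, 9.46% and 12.1% of the day 6 libraries' counts and 4.47%, 4.88% and 4.82% in those of day 9. Of these 10 genes, 8 lay below day 6 in all 3 day 9 libraries by some margin, 4 of them by at least 2-fold, and 0 lay above. Among the 100 genes with the most counts 28 lay below in all 3 libraries and 5 above. Their median difference from day 6 was -0.24, -0.26 and -0.15 log2 units in replicates 1, 2 and 3. Of all tested genes 15.9% lay below in all 3 libraries and 15.9% above, with medians of -0.02, 0.09 and 0.10. The 10 and the 100 genes were ranked on day 6 itself, so a library other than those of day 6 tends to lie lower on them by construction.

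Among the genes that lay higher in all 3 day 9 libraries, most were of low level. The 191 genes held 0.0842%, 0.0821% and 0.0896% of the day 6 libraries' counts and 0.503%, 0.418% and 0.418% in replicates 1, 2 and 3 of day 9. Their median level was 0.462, 0.499 and 0.516 CPM at day 6 and 2.69, 3.74 and 3.80 CPM at day 9, with replicate 1 the lowest of the day 9 libraries. Replicate 1 was the farthest from day 6 of the 3 day 9 libraries in 58 of these genes, between the others in 21 and the nearest in 112. All 3 libraries lay at least 8-fold above the day 6 mean for 13 genes. A mean of at least 100 CPM over the 6 libraries was reached by 5 of the 191, and 50 had a mean under 1 CPM. The low-count filter keeps a gene with enough counts in the 3 libraries of either day, so genes low at day 6 can have entered through day 9 alone.

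WBGene00028725 had the widest gap among the called rises with a mean of at least 10 CPM at the higher age, the limits for naming a gene of this class. It stood at 1.64, 1.63 and 3.03 CPM in the day 6 libraries and at 68.2, 222.04 and 247.7 CPM in day 9 replicates 1, 2 and 3. All day 9 libraries were far above day 6, with replicate 1 the lowest of them. The log2 fold change was 6.41 (SE 0.65; adjusted p = 0.0267 in edgeR), and the gap between the nearest libraries of the days was 21.97-fold on the log2 CPM scale. WBGene00032570, the next by gap, stood at 4.53, 5.94 and 5.93 CPM at day 6 and at 36.6, 30.5 and 34.04 CPM at day 9. Here the day 9 libraries were nearly level with each other, and the log2 fold change was 2.62 (SE 0.21; adjusted p = 0.0219 in edgeR).

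Among the genes that lay lower in all 3 day 9 libraries, the 4 genes with the highest CPM held most of the counts. The 102 genes took 8.39%, 7.98% and 10.5% of the day 6 libraries' counts and 2.81%, 3.09% and 3.02% at day 9. Their median level went from 20.6, 23.1 and 19.9 CPM at day 6 to 4.82, 5.87 and 4.47 CPM in replicates 1, 2 and 3 of day 9. Replicate 1 was the farthest from day 6 in 39 of them, between the others in 23 and the nearest in 40. In 4 of the 102 genes all 3 libraries lay at least 8-fold below the day 6 mean.

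WBGene00035686 had the widest gap among the called falls with a mean of at least 10 CPM at day 6. It stood at 22.7, 25.4 and 35.96 CPM in the day 6 libraries and at 1.52, 2.88 and 2.35 CPM in day 9 replicates 1, 2 and 3, a mean 12.5-fold lower. Its log2 fold change was -3.63 (SE 0.35; adjusted p = 0.0267 in edgeR). WBGene00038157 stood at 14.8, 15.8 and 10.7 CPM at day 6 and at 0.896, 1.01 and 1.45 CPM at day 9, which gave a log2 fold change of -3.61 (SE 0.33; adjusted p = 0.0267 in edgeR). The lowest day 6 library of each gene lay above its highest day 9 library by at least 7.02-fold on the log2 CPM scale.

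**Figure D2:**
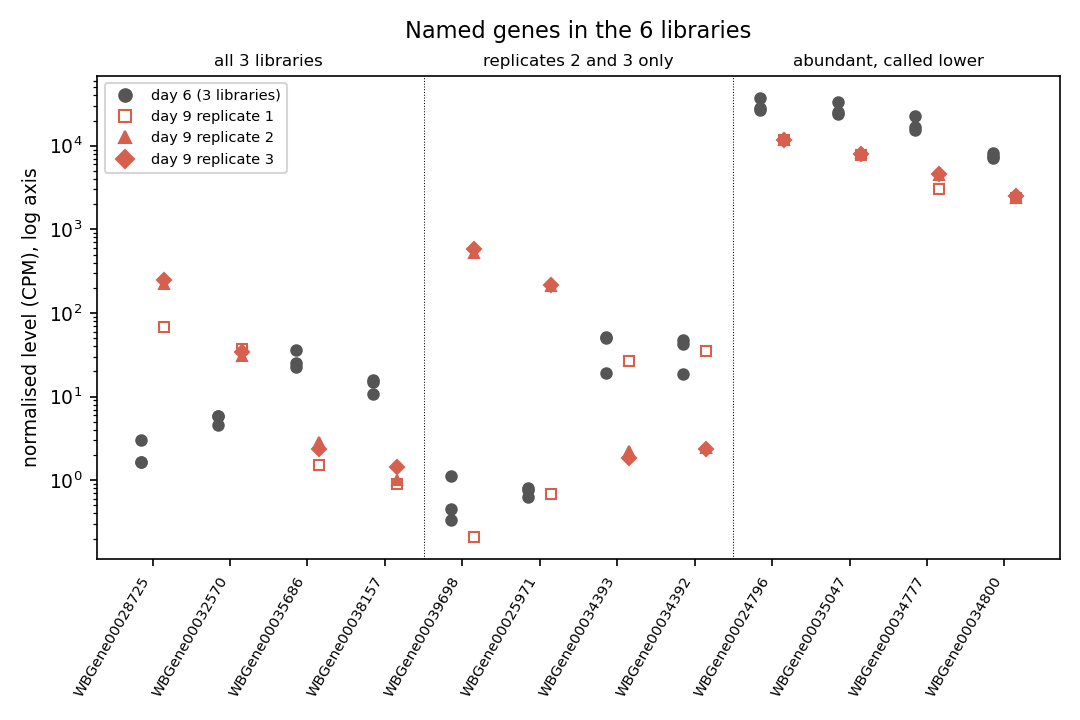
Normalised level in CPM (log axis) of the 12 named genes in each of the 6 libraries, with day 6 in grey and day 9 in red, replicate 1 of day 9 as open squares. In the left and right panels the 3 day 9 libraries lie together on one side of day 6, whereas in the middle panel replicate 1 lies with or near day 6 and replicates 2 and 3 lie apart from it.

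The number of calls varied with the libraries in the fit. Leaving out any 1 library other than day 9 replicate 1 gave 0 calls in edgeR, with 1967 to 2961 genes at an unadjusted p under 0.05. The log2 fold changes of the 4 named rises and falls stayed between 6.13 and 6.81, 2.505 and 2.715, -3.82 and -3.38, and -3.82 and -3.49 when each library was left out in turn, in the order described. Leaving out day 9 replicate 1 gave 5341 rises and 4780 falls, among them all 66. With replicate 1 as the lone day 9 library, which is then assumed to vary like day 6, edgeR called 909 rises and 863 falls, among them 64 of the 66. DESeq2 called 2205 higher and 784 lower genes on the same 6 libraries, with all 66 among them, limma-voom called 35 and 58, and a fit that took its spread from all 12 libraries called 3545 and 2210. The 66 genes were chosen on these same libraries, so finding them again under other fits is no separate support for them.

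**Figure D3:**
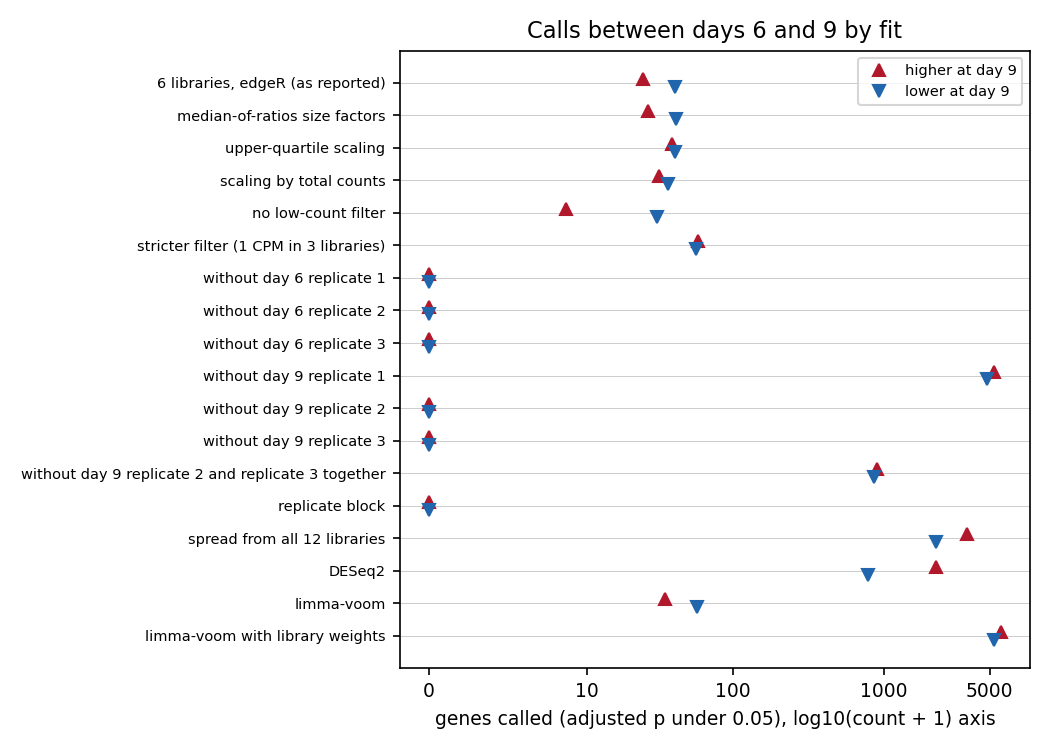
Number of genes called higher (red, upward triangles) and lower (blue, downward triangles) at day 9 than at day 6 under each fit, on a log10(count + 1) axis, at an adjusted p under 0.05. The fit of 6 libraries gave 25 and 41, the 5 fits that left out a library other than day 9 replicate 1 gave 0, and the fit without day 9 replicate 1 gave 5341 and 4780.

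The balance of rises and falls moved with some of the scalings and with the filter. Of the calls, 37.9% were rises with TMM scaling and 39.1% with median-of-ratios factors, where the log2 fold change of the median gene was 0.10 and 0.06. With upper-quartile scaling 48.8% were rises and that median was 0.25. With scaling by total counts 46.4% were rises and it was 0.21. The share was 18.4% with no low-count filter, where the median was 0.33, and 50.9% with a stricter filter.

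The changes seen in replicates 2 and 3 only were unequal in number by direction at the 2-fold margin, with 1984 genes above and 120 below, whereas with any gap 3946 lay above and 3202 below. The 1984 genes held 1.99%, 1.98% and 2.45% of the day 6 libraries' counts, 1.52% in replicate 1 of day 9, and 13.9997% and 15.8% in replicates 2 and 3. Their median level was 1.64, 1.63 and 2.42 CPM at day 6, 1.17 CPM in replicate 1, and 15.6 and 17.5 CPM in replicates 2 and 3. The typical gene lay 4.96-fold and 5.49-fold above the day 6 mean in replicates 2 and 3, and 710 genes lay at least 8-fold above it in both. The gene of the class that had the most counts did not account for the share. Without that gene, a check chosen after seeing the data, it was 13.7% and 15.5% in replicates 2 and 3. How evenly the other genes held it was not tested. Of the 1984 genes 0 were called in the fit of the 6 libraries, in which their spread at day 9 is large by the way they were chosen.

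By the definition of the class, day 9 replicate 1 did not exceed the highest day 6 library in these genes. It lay within the range of the day 6 libraries for 798 of the 1984 genes and below it for 1186, and above the day 6 mean for 386. Of all tested genes, with any gap, 20.8% lay below day 6 in replicate 1 and not in replicates 2 and 3. A further 15.9% lay below in all 3. Replicate 1 lay at least 2-fold below the lowest day 6 library for 336 of the 1984 genes, 16.9% of the class and 2.41% of all tested genes. The reverse pattern, with replicates 2 and 3 below and replicate 1 above, was held by 3 genes, 0.0215%. These 336 genes had a median of 1.13, 1.13 and 2.34 CPM in the day 6 libraries, 0.138 CPM in replicate 1 of day 9, and 30.2 and 34.5 CPM in replicates 2 and 3. The value in replicate 1 is below the 0.207 CPM that 3 counts make in that library, the shallowest of the 6. Of the 336 genes 92 had 0 counts there, and 191 had at most 3.

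The same genes varied among the day 6 libraries. Day 6 replicate 3 was the highest of the day 6 libraries for 1298 of the 1984 genes, 65.4%, and for 203 of the 336, 60.4%, against 40.7% of all tested genes. For the genes below day 6 in replicates 2 and 3 only it was the highest in 22.5%. Without day 6 replicate 3 the class above numbered 1822 genes, and the genes shared by all 3 day 9 libraries numbered 355 above and 157 below in place of 191 and 102.

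WBGene00039698 had the widest gap of the class, measured from replicates 2 and 3 to the nearest of the other 4 libraries, among genes with a mean of at least 10 CPM in replicates 2 and 3. It stood at 0.336, 0.453 and 1.13 CPM in the day 6 libraries and at 0.207 CPM in day 9 replicate 1, while replicates 2 and 3 stood at 525.98 and 582.4 CPM. Replicate 1, with 3 counts, was the lowest of the 6 libraries, and the mean of replicates 2 and 3 was 867.3-fold above that of day 6. WBGene00025971 stood at 0.797, 0.635 and 0.773 CPM at day 6 and at 0.689 CPM in day 9 replicate 1, while replicates 2 and 3 stood at 207.9 and 218.1 CPM. Here replicate 1 lay inside the range of day 6, and the mean of replicates 2 and 3 was 289.7-fold above that of day 6. In the fit of the 6 libraries their log2 fold changes were 9.13 ± 2.44 and 7.58 ± 1.89 (SE), with edgeR adjusted p of 0.107 and 0.103.

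The 120 genes that lay lower in replicates 2 and 3 only differed by less. They held 1.01%, 1.05% and 0.981% of the day 6 libraries' counts, 1.22% in replicate 1 of day 9, and 0.495% and 0.443% in replicates 2 and 3. Replicate 1 lay within the range of day 6 for 54 of them and above it for 66, and by the definition of the class never below it. Of all tested genes, with any gap, 18.3% lay above day 6 in replicate 1 and not in replicates 2 and 3. A further 15.9% lay above in all 3. The median gap was 2.17-fold, just past the margin, against 3.87-fold for the 1984 genes above, and 3 of the 120 lay at least 8-fold below the day 6 mean. The number of these genes went with the scaling, from 45 with upper-quartile scaling to 185 with median-of-ratios factors, and was 395 without day 9 replicate 2, when replicate 3 alone stood for the pair.

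The widest gaps in this class were those of WBGene00034393 and WBGene00034392, whose identifiers are 1 number apart. WBGene00034393 stood at 50.9, 50.8 and 19.1 CPM in the day 6 libraries and at 26.5 CPM in day 9 replicate 1, while replicates 2 and 3 stood at 2.22 and 1.82 CPM. WBGene00034392 stood at 42.4, 47.7 and 18.6 CPM at day 6 and at 35.1 CPM in day 9 replicate 1, while replicates 2 and 3 stood at 2.46 and 2.38 CPM. In both genes day 6 replicate 3 was the lowest of the day 6 libraries and replicate 1 of day 9 lay among them. Their log2 fold changes in the fit of the 6 libraries were -1.997 and -1.45 (SE 1.12 and 1.13), with edgeR adjusted p of 0.246 and 0.380. Whether these genes share reads was not tested.

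**Figure D4:**
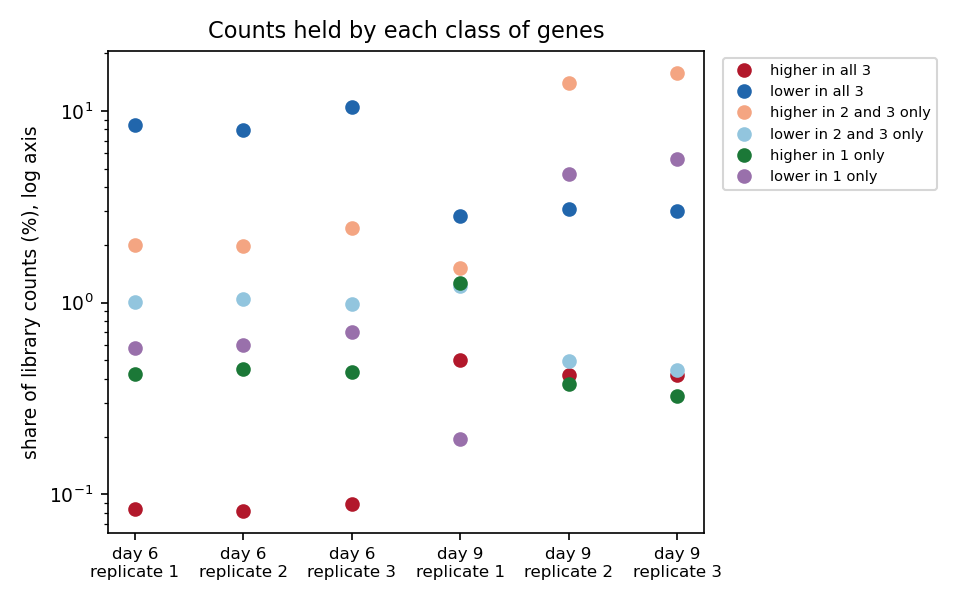
Share of each library's counts (in %, log axis) held by the genes of each class, 1 point per library. The genes higher in replicates 2 and 3 only took 13.9997% and 15.8% there and 1.52% to 2.45% in the other 4 libraries, while the genes lower in all 3 held 7.98% or more in each day 6 library and 3.09% or less in each day 9 library.

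Replicate 1 of day 9 also had differences of its own. It lay at least 2-fold below day 6, with replicates 2 and 3 not below it, for 537 genes, 3.85% of those tested, and these include the 336 that lay above day 6 in replicates 2 and 3. The mirror image above day 6 held for 123 genes, 0.881%. Without the genes that lay at least 2-fold beyond day 6 the other way in replicates 2 and 3, there were 201 below and 120 above, and with any gap 2901 lay below and 2549 above. Of the 537 genes, 256 had at most 3 counts in replicate 1 and 109 had 0. The 123 genes had a median of 4.20, 4.08 and 3.64 CPM in the day 6 libraries, 11.8 CPM in replicate 1, and 3.17 and 2.42 CPM in replicates 2 and 3. Of the 497 genes at least 2-fold above day 6 in replicate 1, 38.4% were among the 191 shared by all 3 day 9 libraries, and of the 810 at least 2-fold below, 12.59% were among the 102. The backgrounds were unequal: among all 13956 tested genes, replicates 2 and 3 both lay at least 2-fold above day 6 in 2917 and below it in 384.

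The classes lay at different levels of expression. With genes split by their mean over the 6 libraries, those higher in replicates 2 and 3 only made up 6.52% of the 1380 genes under 1 CPM, 22.3% of the 4753 genes from 1 to under 10 CPM, 12.8% of the 5447 from 10 to under 100 CPM, 5.90% of the 2273 from 100 to under 1000 CPM, and 2.91% of the 103 at 1000 CPM or more. The genes higher in all 3 libraries went from 3.62% of the lowest tier to 0.220% of that from 100 to under 1000 CPM, and numbered 0 at 1000 CPM or more. The genes lower in all 3 libraries made up 0.547% to 1.23% of the lower 4 tiers and 3.88% of the highest. That last share is 4 of 103 genes, the same 4 that had the highest CPM at day 6 and were singled out above. In replicates 2 and 3 the median gene from 1 to under 10 CPM lay 0.82 and 0.87 log2 units above day 6, and that from 100 to under 1000 CPM -0.38 and -0.50 from it. In replicate 1 these medians were -0.00093 and -0.011. These tiers use the day 9 values too, so a gene high in replicates 2 and 3 also moves up a tier. Genes of the lowest tier can have passed the low-count filter through the libraries of either day alone, which bears on the shares there.

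**Figure D5:**
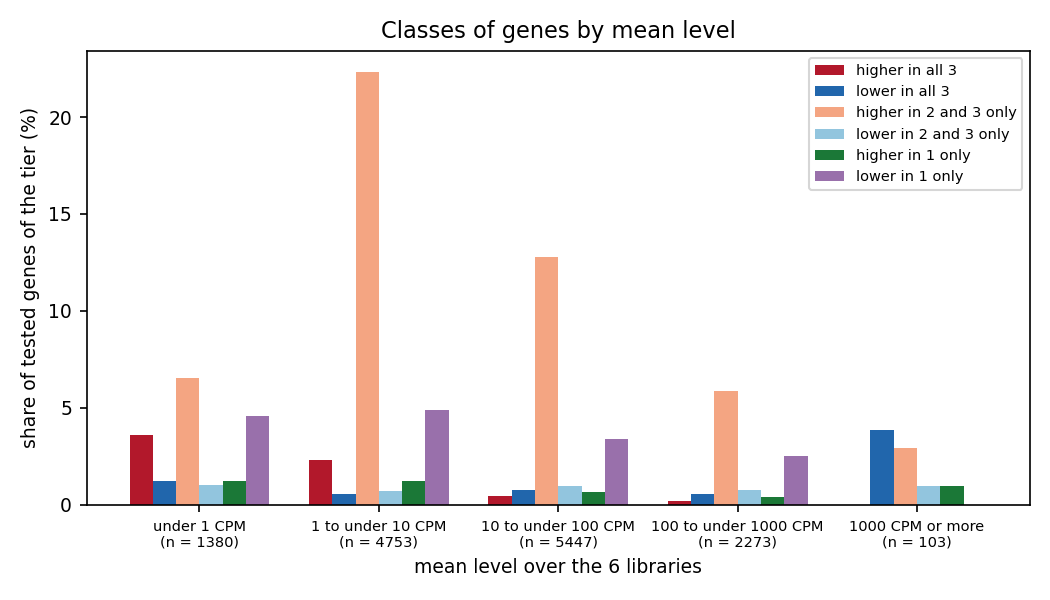
Share of the tested genes (in %) that belong to each class, by mean level over the 6 libraries, with the number of genes in each tier under its label. The class higher in replicates 2 and 3 only peaks at 22.3% from 1 to under 10 CPM. The class lower in all 3 is at its largest share, 3.88%, at 1000 CPM or more, where it is 4 of 103 genes.

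The low-count filter removed part of what replicates 2 and 3 held alone. Of 6491 genes with counts in the 6 libraries that were not tested, 861 reached 1 CPM in both replicates 2 and 3 and in none of the other 4 libraries. The counts of tested genes made up at least 99.9% of each day 6 library and of day 9 replicate 1, and 99.5% of replicates 2 and 3. With no such filter the genes higher in replicates 2 and 3 only numbered 3143, and those higher and lower in all 3 libraries 237 and 133.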

How the data were processed

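The values deposited by the authors are raw counts of each gene in each library, with no normalisation. STAR, featureCounts and MultiQC were used, per the submitters' processing notes; their versions and settings, the genome build and the annotation were not given in the sources used here. Animals were synchronised by bleaching, RNA was extracted with Trizol and libraries were prepared from it with an Illumina TruSeq kit, per the labels' protocols. The labels do not say that replicates came from separate cultures. The p-values therefore weigh the difference between the days only against the spread among these samples, and that spread may be technical. Same-day libraries differed beyond sampling noise (chi-square over its degrees of freedom from 4.23 to 288.04) and each counted as 1 sample.

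The 6 libraries of days 6 and 9 were fitted with edgeR 4.0.16 in R 4.3.3: filterByExpr by day, TMM factors, robust quasi-likelihood F tests with 4 residual degrees of freedom, and Benjamini-Hochberg adjustment over 13956 genes at 0.05. Each SE is the absolute log2 fold change over the square root of its F value. The common biological coefficient of variation was 0.432. In place of the fit of all 12 libraries, this fit keeps the spread of other days out of the test. The comparison, the classes and the rule for named genes were chosen with earlier results of these data known. Of each of the shared class and the class of replicates 2 and 3 only, 2 higher and 2 lower genes were named, by the widest gap, with at least 10 CPM in the higher libraries and, in the shared class, an edgeR call. Lists of marker genes could not be used without gene names. The fit and the classes were tested on simulated data, which did not hold the split seen among the day 9 libraries. Recovery of the known changes was required only at a spread lower than that of these libraries. Limits set at 3 counts cover counting error only. Alternatives were other scalings and filters, DESeq2 1.42.0, limma-voom (limma 3.58.1) with and without library weights, a replicate block, spread from all 12 libraries, other thresholds and each library left out, with the tested genes held fixed except where the filter itself changed.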

Additional observations from a re-analysis of the deposited data

How the results depend on the processing

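The calls between days 6 and 9, 25 higher and 41 lower, were counted again under each alternative. The higher genes numbered 39 with upper-quartile scaling, 7 without a low-count filter and 59 under the stricter filter, while the lower genes stayed within 1.5 times under these. DESeq2 gave 2205 and 784 (7 genes had no adjusted p), limma-voom with library weights 5965 and 5317 (its weight for day 9 replicate 1 was 0.0398, and 0.558 to 3.85 for the others), and the spread of all 12 libraries 3545 and 2210. An adjusted p under 0.01 left 0 and 0, against 4560 genes at an unadjusted p under 0.05, and one under 0.1, a threshold chosen after seeing the data, gave 395 and 293. Leaving out single libraries gave 0 to 5341 higher and 0 to 4780 lower genes, and leaving out day 9 replicates 2 and 3 together 909 and 863. Fits with libraries left out rest on fewer samples, and the cause of the differences in calls was not tested.

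With the replicate number as a block there were 0 and 0 calls in edgeR, with 3059 genes at an unadjusted p under 0.05 and 2 fewer residual degrees of freedom. Same-numbered libraries of the 2 days deviated from their group means with correlations of 0.37, -0.37 and 0.49 across genes. A library that departs from the others of its day can set such values, so they cannot tell whether the numbers mark pairs. The reported fit took no block.

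Of the classes, the genes higher in all 3 day 9 libraries numbered 2216 with any gap and 29 with a gap of 2 log2 units, and those lower in all 3 numbered 2218 and 15. The genes of replicates 2 and 3 only numbered 3946 and 959 above and 3202 and 5 below, and those of replicate 1 only made up 18.3% and 0.00717% of the tested genes above and 20.8% and 1.017% below. With no low-count filter there were 3143 genes above in replicates 2 and 3 only and 0.978% of the larger number of genes then tested lay above in replicate 1 only, which is 200 genes in place of 123. The genes below in replicates 2 and 3 only numbered 185 with median-of-ratios factors, 45 with upper-quartile scaling, 63 with total counts and 66 with the stricter filter. Leaving out single libraries gave 209 to 355 genes higher and 111 to 157 lower in all 3, the most without day 6 replicate 3, 1822 to 2229 above and 127 to 395 below in replicates 2 and 3 only, the last without day 9 replicate 2, and 0.910% to 1.0963% of the tested genes above and 3.97% to 4.52% below in replicate 1 only. The classes of all 3 libraries and of replicates 2 and 3 need replicate 1, so none was counted without it. With replicate 1 as the lone day 9 library the log2 fold changes of WBGene00039698 and WBGene00025971 turned to -1.63 and -0.0900. Directions of the 12 named genes held under the other alternatives run; WBGene00025971 did not pass the stricter filter and has no value there. Day 9 replicate 1, with 14276540 counts, limits what can be seen of genes under 0.207 CPM.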
